A study of Homo sapiens with 6 samples.

Results

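The genes of cholesterol and fatty acid synthesis were followed in WM164, a human melanoma cell line with the BRAF V600E mutation. The 38 genes were chosen by name and not by a rule on their values, though earlier results of these data were known. They are the SREBP regulators, the enzymes from acetyl-CoA to cholesterol and to long-chain unsaturated fatty acids, and 3 sterol carriers. All 38 were found among the 60504 genes of the table. RNA was sequenced from 3 libraries of cells with an empty expression vector (EV) and 3 libraries of cells with an HDAC8 expression vector, both in the same BRAF V600E background. HDAC8 is a class I histone deacetylase. Plasmids were introduced by lipid transfection and both kinds of cell were kept in hygromycin, and neither the promoter of the vector nor whether the cells were pooled or grown from 1 clone is given in the sources used here. The labels number the libraries of a group under biorep without saying that they came from separate cultures, and the study leaves its sequencing assays out of those it states were repeated independently, so p-values measure the spread between these libraries, which may be technical.

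Total counts per library ran from 34741083 to 42041462, and no difference was called for the gene carried by the vector. HDAC8 had a mean normalized count (expected count divided by the size factor of its library) of 422.3 ± 50 (SD, n = 3) in EV and 468.0 ± 20.3 (SD, n = 3) in the other group, a log2 difference of 0.15 with an SE of 0.28 (adjusted p = 0.856 by DESeq2). The second group is therefore called the libraries labelled HDAC8, and every direction given here is a direction between labels. The study probed HDAC8 protein by immunoblot in melanoma cells with either construct, and protein was not measured here. Mitochondrially encoded transcripts took 4.46% to 12.8% of the counts per library. Of 8 melanocyte lineage markers all 8 were detected, and their summed normalized counts were 244960.8 to 328760.5 in EV and 137043.5 to 182217.7 in the libraries labelled HDAC8. Summed levels were 146.6 to 280.0 against 165.5 to 176.2 for 4 keratinocyte markers, 2470.3 to 2877.4 against 1461.3 to 2423.1 for 4 fibroblast markers, 97.5 to 202.9 against 114.3 to 218.0 for 3 endothelial markers and 2286.0 to 3302.4 against 4272.8 to 6164.6 for 3 immune markers. They were 7.3 to 29.0 against 1.0 to 45.7 for 3 adipocyte markers and 0 to 5.9 against 0 for 3 hepatocyte markers, and KRT1, DCN, CDH5, ADIPOQ, FABP4, ALB and APOA1 were at 0 in all 6 libraries. The melanocyte sum came mostly from PMEL, and within it MLANA had a log2 fold change of -4.84 and MITF one of -0.20. The fibroblast sum came mostly from LUM and the immune sum mostly from CD68. The part of these markers in the results below was not tested. In RNA from a whole culture, fewer cells of a type and less RNA per cell cannot be told apart.

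Animal cells make cholesterol and fatty acids from the same cytosolic acetyl-CoA. Sterol regulatory element-binding proteins (SREBPs), made from SREBF1 and SREBF2, are held in the endoplasmic reticulum with SCAP while sterols are plentiful, because INSIG1 and INSIG2 bind SCAP. When sterols fall the complex moves to the Golgi, proteases free the active factor, and it binds sterol regulatory elements, often beside binding sites for NF-Y (the CCAAT box) and SP1 (the GC box). SREBF2 is best known for the cholesterol genes and SREBF1 for the fatty acid genes, and INSIG1 is itself a target, which gives the pathway a feedback loop.

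The upstream sequences of the 2 pairs of related genes that hold a called member and its close relative are shown, because each called member is set against its relative below. They run from 200 to 21 bases before the RefSeq start site on GRCh38.p14 and read 5′ to 3′ on the strand of the gene, with capitals for each whole motif found on either strand. The SREBF1 stretch lies at chr17:17837007-17837186 on the minus strand and holds 3 GC boxes. The SREBF2 stretch lies at chr22:41832905-41833084 on the plus strand and holds a sterol regulatory element that starts at -133 and a CCAAT box. GC boxes of SREBF2 start at -23, -10 and -5, across or past the edge of the stretch, so they are not marked.
SREBF1: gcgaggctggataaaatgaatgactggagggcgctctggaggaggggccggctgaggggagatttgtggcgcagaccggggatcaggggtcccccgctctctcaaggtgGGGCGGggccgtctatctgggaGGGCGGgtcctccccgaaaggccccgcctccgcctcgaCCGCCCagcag
SREBF2: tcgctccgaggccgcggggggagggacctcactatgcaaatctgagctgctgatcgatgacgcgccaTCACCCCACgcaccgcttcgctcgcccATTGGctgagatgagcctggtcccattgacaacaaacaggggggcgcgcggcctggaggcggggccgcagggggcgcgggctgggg

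The SCD stretch lies at chr10:100347033-100347212 on the plus strand and holds a CCAAT box and a GC box. The SCD5 stretch lies at chr4:82798817-82798996 on the minus strand and holds a CCAAT box. Motifs across or past the edges of the stretches are not marked. These are GC boxes of SCD5 at -244, -236, -217 and -24, and a CCAAT box at -229 and a GC box at -11 of SCD.
SCD: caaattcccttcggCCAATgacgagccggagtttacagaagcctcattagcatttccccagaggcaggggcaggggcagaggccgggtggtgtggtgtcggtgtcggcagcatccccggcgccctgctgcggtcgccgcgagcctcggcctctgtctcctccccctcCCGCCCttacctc
SCD5: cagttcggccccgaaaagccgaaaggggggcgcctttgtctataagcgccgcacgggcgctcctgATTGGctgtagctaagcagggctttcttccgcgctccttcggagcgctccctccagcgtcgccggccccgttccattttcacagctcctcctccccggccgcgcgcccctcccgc

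RefSeq promoters (250 bases before to 50 after a start site) were matched for 34 of the 38 genes, giving 47 promoters. ACAT2, FDFT1, SQLE and FASN were not matched. A GC box (GGGCGG, either strand) was found in 87.2% of these promoters, against 45% of all 35116 promoters and 65.5% of the 14838 promoters of genes whose mean level was 50 normalized counts or more. A CCAAT box (CCAAT) was found in 63.8%, against 34.6% and 34.8%. The sterol regulatory element in the form TCACNCCAC was found in 1 promoter, that of SREBF2 (2.13%, against 1.13% and 1.02%), the E-box CACGTG in 12.8% (7.26% and 9.32%) and the AP-1 site TGANTCA in 2.13% (7.71% and 5.35%), the last in ELOVL5. None of these motifs contains another. A match is a string of letters in this window, and several promoters belong to 1 gene.

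The 38 genes were well expressed, and the share of them that was called was close to that of all genes. Their mean level was at or above the 50.1st percentile of the genes tested, with a median at the 81.8th, and together they took 0.555% to 0.652% of the counts of a library. Calls needed an adjusted p below 0.05 by DESeq2 together with a log2 fold change of 0.58 or more in either direction. By this rule SREBF1 rose, ACSS2 and SCD5 fell, and 35 of the 38 were not called. Over all genes of the file 11% of the 21021 genes with an adjusted p were called (5.57% higher and 5.44% lower), and 14% of those whose mean was 50 normalized counts or more, so the 3 calls among 38 are close to the background. Groups did not overlap in 11 of the 38 genes, 5 higher (SREBF1, INSIG2, HSD17B7, EBP and ELOVL1) and 6 lower (ACAT2, IDI1, ACSS2, ACACA, SCD5 and FADS1), beside 24% of all 26162 genes tested. The median log2 fold change of the 38 was -0.09, against -0.00012 for all genes tested, and the median size of the change was 0.21, against 0.35 for the 14451 genes with a mean of at least 50. The 95% interval lay wholly within the fold minimum of 0.58 in either direction for 14 of the 38 and within 1 log2 unit for 27 of the 38, and for the other 11 genes it reached past a 2-fold change in at least 1 direction.

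**Figure D1:**
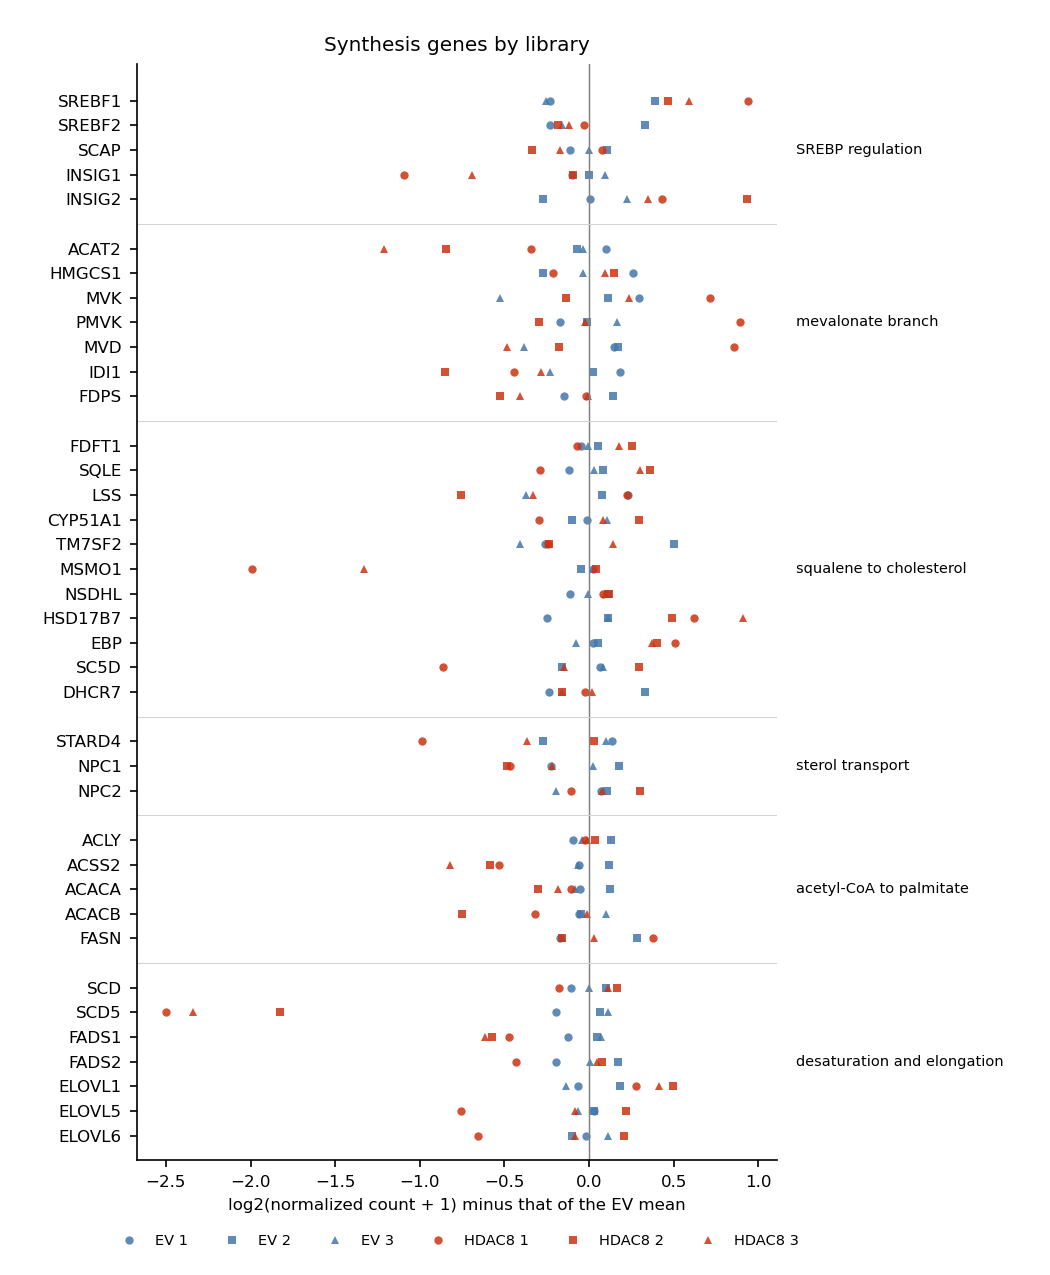
Level of each of the 38 genes in each library as log2(normalized count + 1) minus that of the EV mean (x axis), with genes grouped by role (rows), EV libraries in blue and libraries labelled HDAC8 in red. SCD5 sits far to the left in all 3 libraries labelled HDAC8, while MSMO1 is far to the left in HDAC8 1 and HDAC8 3 and at the EV level in HDAC8 2.

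**Figure D2:**
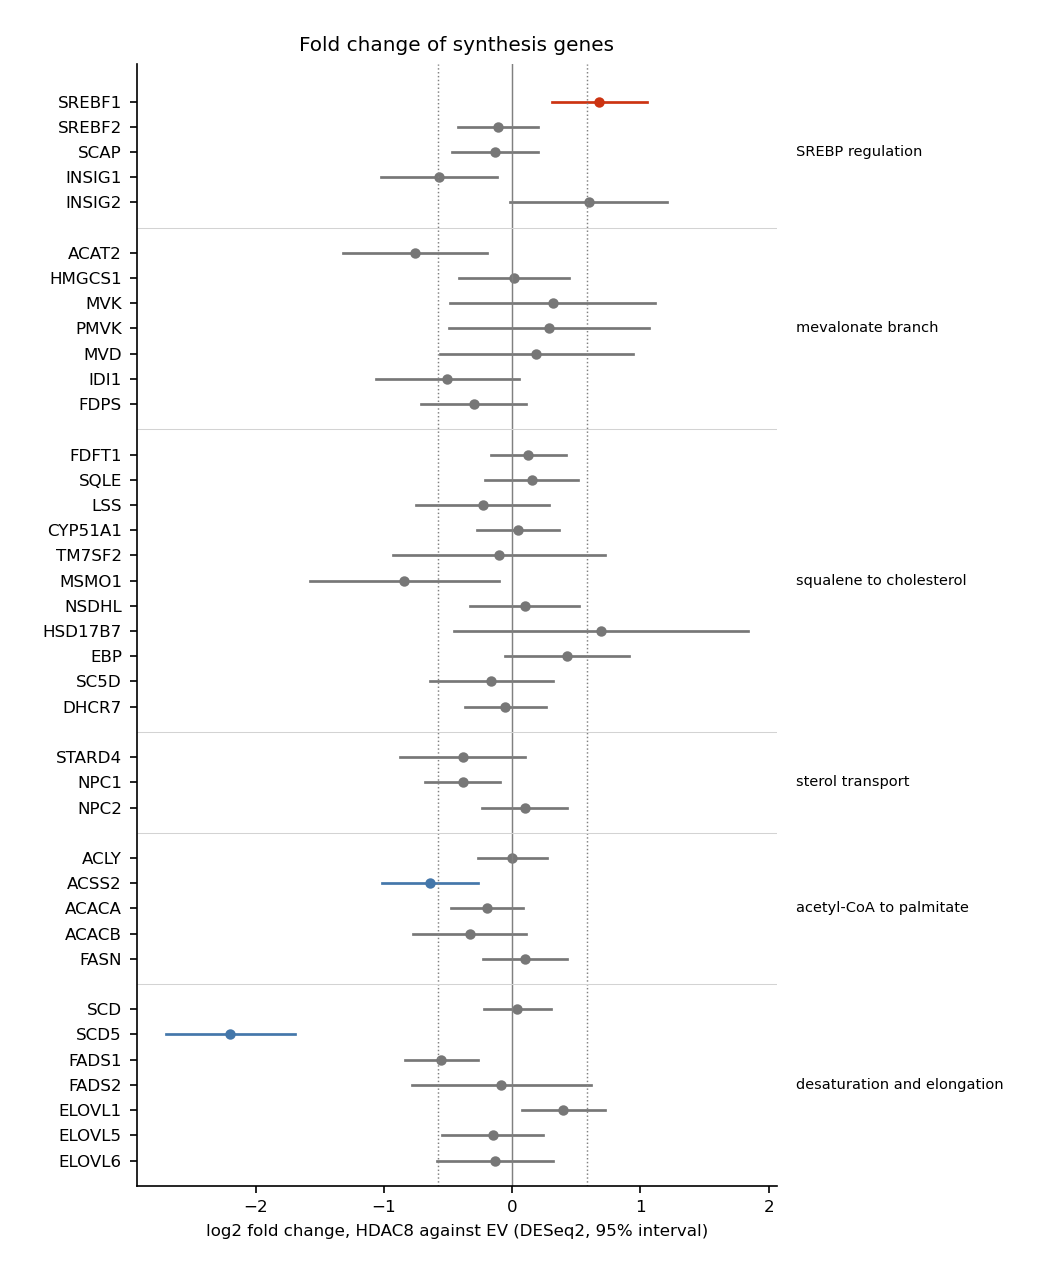
DESeq2 log2 fold change of each gene, HDAC8 against EV (x axis), with its 95% interval as a bar and dotted lines at the fold minimum of 0.58 in either direction. SREBF1 (red) was called higher, ACSS2 and SCD5 (blue) were called lower, and the grey genes were not called.

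Among the 5 regulators, SREBF1 was called and the other 4 were not, beside 11% of all genes called by DESeq2. SREBF1 (ENSG00000072310, GRCh38 chromosome 17, 17810399 to 17837002, minus strand) was read at 7150.4, 11024.2 and 7035.8 normalized counts in EV and 16100.3, 11605.7 and 12658.0 in the libraries labelled HDAC8. The groups did not overlap, but EV 2 lay close below HDAC8 2. Its estimate was 0.68 on the log2 scale (SE 0.19, adjusted p by DESeq2 = 0.0044), a 1.60-fold rise with a 95% interval of 1.24 to 2.07. The call was lost without EV 1 (log2 fold change 0.57, adjusted p = 0.085), without EV 3 (0.56, adjusted p = 0.0932) and without HDAC8 1 (0.53, adjusted p = 0.0118), and with size factors set within bins of GC content it stood at 0.51 (adjusted p = 1.06e-05), under the fold minimum. SREBF1 overlaps RAI1 on the opposite strand over part of its exons, and it is not given whether the counting used strand.

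SREBF2, whose product drives the cholesterol genes, was not called. SREBF2 (ENSG00000198911, chromosome 22, 41833105 to 41907306, plus strand) had 12395.5, 18313.5 and 13020.4 normalized counts in EV and 14281.6, 12839.8 and 13402.8 in the libraries labelled HDAC8, so that EV 2 was the highest and the other 5 lay close together. The log2 difference was -0.11 (95% interval -0.42 to 0.20, adjusted p by DESeq2 = 0.793). SCAP, the escort of both precursors, had a log2 fold change of -0.13 (adjusted p = 0.754).

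The 2 INSIG genes, which retain SCAP in the endoplasmic reticulum, had estimates of opposite sign. INSIG1 (ENSG00000186480, chromosome 7, 155297776 to 155310235, plus strand) had 2395.0, 2573.9 and 2745.5 normalized counts in EV and 1205.7, 2403.7 and 1591.0 in the libraries labelled HDAC8. HDAC8 2 lay among the EV libraries and the other 2 lay below them. The fitted log2 change was -0.57 (SE 0.23, adjusted p by DESeq2 = 0.0876), and without HDAC8 2 it was called at -0.88 (adjusted p = 4.39e-04). Without HDAC8 1 it shrank to -0.37 (adjusted p = 0.195), and with any other library left out it was not called. INSIG2 had 360.7, 297.0 and 419.7 in EV and 484.8, 685.2 and 457.4 in the libraries labelled HDAC8, without overlap, at a log2 fold change of 0.60 that was not called (SE 0.31, adjusted p = 0.226). With size factors within bins of GC content INSIG2 was called (0.79, adjusted p = 0.0298).

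None of the 7 genes of the mevalonate branch, which carries acetyl-CoA to farnesyl diphosphate, was called. The alternatives edgeR and limma-voom also called 0 of 7. DESeq2 called 11% of all genes with an adjusted p, so 0 of 7 is close to the background. The largest estimate was that of ACAT2 (ENSG00000120437, chromosome 6, 159762045 to 159779112, plus strand), the cytosolic thiolase that joins 2 acetyl-CoA. It had 860.9, 764.0 and 781.2 normalized counts in EV and 631.9, 445.5 and 345.2 in the libraries labelled HDAC8. The groups did not overlap, and HDAC8 1 lay nearest to EV. DESeq2 put the log2 change at -0.76 (SE 0.29, adjusted p = 0.0588), and it was called without HDAC8 1 (-1.02, adjusted p = 0.0017) and with a filter of 10 counts in every library (-0.75, adjusted p = 0.0208). ACAT2 overlaps TCP1 and SOD2 on the opposite strand, and its expected counts were fractional in all 6 libraries, as reads shared between genes are. They were also fractional in all 6 libraries for SREBF2, FDPS, CYP51A1 and NPC1, and in 83.3% of the libraries for SREBF1.

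The next step is made by HMGCS1 (ENSG00000112972, chromosome 5, 43287470 to 43313512, minus strand), the HMG-CoA synthase and a classical SREBP target. It had 1539.3, 1060.9 and 1250.1 normalized counts in EV and 1107.3, 1421.5 and 1368.8 in the libraries labelled HDAC8, interleaved throughout. Its estimate was 0.02 on the log2 scale (95% interval -0.41 to 0.45, adjusted p by DESeq2 = 0.983). The 3 enzymes that phosphorylate and decarboxylate mevalonate (MVK, PMVK and MVD) had log2 fold changes of 0.32, 0.29 and 0.19, each with HDAC8 1 as the highest of the 6 libraries. IDI1, the isopentenyl diphosphate isomerase, stood at -0.51 without overlap of the groups (adjusted p = 0.276), and FDPS, the farnesyl diphosphate synthase, at -0.30 (adjusted p = 0.424).

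The 11 genes from squalene to cholesterol were not called either. DESeq2 called 11% of all genes with an adjusted p. Of the 11 genes here, edgeR called 0 and limma-voom called 1. That gene was MSMO1 (ENSG00000052802, chromosome 4, 165327667 to 165343164, plus strand), the sterol C4-methyl oxidase. It had 1248.9, 1188.9 and 1246.2 normalized counts in EV and 308.7, 1261.8 and 487.9 in the libraries labelled HDAC8. The 3 EV libraries lay within a narrow band, HDAC8 2 lay just above them, and HDAC8 1 and HDAC8 3 lay far below. The log2 difference was -0.84 (SE 0.38, adjusted p by DESeq2 = 0.133), it was called by limma-voom (-1.13, adjusted p = 0.0232), and without HDAC8 2 it stood at -1.62 (adjusted p = 2.47e-07). Without HDAC8 1 it shrank to -0.49 (DESeq2 adjusted p = 0.334) and without HDAC8 3 to -0.64 (adjusted p = 0.421). The value thus depends on which of these libraries is left out.

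SQLE, the squalene epoxidase and a rate-controlling step of the late pathway, was not called. SQLE (ENSG00000104549) had 3476.1, 3988.8 and 3845.9 normalized counts in EV and 3088.6, 4828.9 and 4648.7 in the libraries labelled HDAC8, with the lowest and the highest values both in the second group. The fitted log2 change was 0.15 (95% interval -0.21 to 0.51, adjusted p by DESeq2 = 0.735). The flanking enzymes FDFT1 (squalene synthase, 0.13), LSS (lanosterol synthase, -0.23) and CYP51A1 (lanosterol demethylase, 0.05) were not called. HSD17B7 and EBP were higher in all 3 libraries labelled HDAC8 than in any EV library, at log2 fold changes of 0.69 (SE 0.59, adjusted p = 0.555) and 0.43 (SE 0.25, adjusted p = 0.295). HSD17B7, a sterol ketoreductase, was the lowest of the 38 genes, with 44.2 normalized counts per kb of transcript in EV. DHCR7, which makes cholesterol from 7-dehydrocholesterol, was the second highest per kb (6711 in EV and 6467 in the libraries labelled HDAC8) and had a log2 fold change of -0.05 (95% interval -0.37 to 0.26). The remaining enzymes TM7SF2, NSDHL and SC5D stood at -0.10, 0.10 and -0.16.

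Of the 3 sterol carriers none was called by DESeq2, edgeR or limma-voom, beside 11% of all genes called by DESeq2. STARD4 (ENSG00000164211, chromosome 5, 111496033 to 111512590, minus strand), a cytosolic sterol transfer protein, had 2105.6, 1584.0 and 2056.0 normalized counts in EV and 963.7, 1950.0 and 1486.4 in the libraries labelled HDAC8. HDAC8 2 lay among the EV libraries and HDAC8 1 was the lowest. DESeq2 put the log2 change at -0.39 (SE 0.25, adjusted p = 0.375). NPC1, which exports cholesterol from lysosomes together with NPC2, stood at -0.38 (SE 0.15, adjusted p = 0.0692) and NPC2 at 0.10 (adjusted p = 0.833).

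On the fatty acid side, 1 of the 5 genes that lead to palmitate was called, beside 11% of all genes called by DESeq2. ACSS2 (ENSG00000131069, chromosome 20, 34872146 to 34927962, plus strand), which makes acetyl-CoA from acetate, had 1639.0, 1849.2 and 1633.3 normalized counts in EV and 1178.3, 1138.9 and 967.0 in the libraries labelled HDAC8. All 3 libraries labelled HDAC8 lay below all 3 EV libraries, with a clear gap. Its estimate was -0.64 on the log2 scale (SE 0.19, adjusted p by DESeq2 = 0.00967), 1.56-fold lower. Adjusted p was above 0.05 without EV 1 (0.0548), without EV 2 (0.0854), without EV 3 (0.0515) and without HDAC8 3 (0.1), where the log2 fold change ran from -0.68 to -0.56. ACLY, which makes the same acetyl-CoA from citrate, was not called, with means of 5408 ± 446 (SD, n = 3) and 5404 ± 111 (SD, n = 3), a log2 fold change of -0.0011 and a 95% interval of -0.27 to 0.27.

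FASN (ENSG00000169710, chromosome 17, 82078338 to 82098294, minus strand), the fatty acid synthase, had 36174.7, 49723.6 and 36553.1 normalized counts in EV and 53097.1, 36545.8 and 41610.0 in the libraries labelled HDAC8. EV 2 and HDAC8 1 stood above the other 4 libraries, and the groups overlapped. The log2 difference was 0.10 (95% interval -0.23 to 0.43, adjusted p by DESeq2 = 0.829), and its sign turned with size factors within bins of GC content (-0.10) and without HDAC8 1 (-0.06). The 2 acetyl-CoA carboxylases, which make malonyl-CoA, stood at -0.20 (ACACA, adjusted p = 0.457) and -0.33 (ACACB, adjusted p = 0.414).

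Among the 7 desaturases and elongases, SCD5 had the largest change of all 38 genes. SCD5 (ENSG00000145284, chromosome 4, 82629539 to 82798796, minus strand), a stearoyl-CoA desaturase that puts the first double bond into saturated fatty acids, had 1193.3, 1430.8 and 1472.8 normalized counts in EV and 240.3, 384.1 and 269.0 in the libraries labelled HDAC8. The highest library labelled HDAC8 lay far below the lowest EV library. The fitted log2 change was -2.20 (SE 0.26, adjusted p by DESeq2 = 2.0e-15), 4.59-fold lower, and it was called in each of 15 alternatives at log2 fold changes of -2.42 to -2.07. SCD (ENSG00000099194, chromosome 10, 100347233 to 100364826, plus strand), which does the same chemistry, had 58922.0, 68014.6 and 63383.0 in EV and 56089.0, 71009.4 and 68605.1 in the libraries labelled HDAC8. It was not called, with the groups interleaved and a log2 fold change of 0.04 (95% interval -0.22 to 0.30, adjusted p by DESeq2 = 0.931).

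FADS1, the delta-5 desaturase of polyunsaturated fatty acids, passed the p threshold and missed the fold minimum. It had 4546.7, 5127.3 and 5202.5 normalized counts in EV and 3569.1, 3334.6 and 3244.0 in the libraries labelled HDAC8, without overlap, at a log2 fold change of -0.55 (SE 0.14, adjusted p by DESeq2 = 0.002). It was called without EV 1 or without HDAC8 1, where its change reached the minimum. FADS2, the delta-6 desaturase, overlaps FADS1 on the opposite strand and stood at -0.09 (SE 0.36, adjusted p = 0.946). Of the elongases, ELOVL1 was higher in all 3 libraries labelled HDAC8 (log2 fold change 0.40, SE 0.16, adjusted p = 0.0929). ELOVL5 and ELOVL6 stood at -0.15 and -0.14, each with HDAC8 1 as the lowest library.

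Levels of related genes were then set against each other within each library, as normalized counts per kb of transcript, which removes the scaling between libraries. SREBF1 was at 0.616, 0.643 and 0.577 of the SREBF2 level per kb in EV and at 1.2, 0.966 and 1.01 in the libraries labelled HDAC8. SREBF2 thus stood above SREBF1 in all 3 EV libraries, and both were near the same level in the others. The level of INSIG1 per kb was 8.13, 10.6 and 8.01 times that of INSIG2 in EV and 3.05, 4.30 and 4.26 times in the libraries labelled HDAC8. INSIG1 remained the higher of the pair in every library, by a smaller margin in the second group.

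The level of SCD per kb was 28.6, 27.6 and 24.9 times that of SCD5 in EV and 135, 107 and 148 times in the libraries labelled HDAC8. SCD was the highest of the 38 genes per kb (12100 in EV), so SCD5 was a small part of the stearoyl-CoA desaturase transcripts in both groups. For these 3 pairs the ratios did not overlap between groups, with an exact two-sided permutation p of 0.1, the smallest that 3 against 3 allows, and 0.2 adjusted over 6 pairs. The ratios of ACACA to ACACB, FADS1 to FADS2 and ELOVL5 to ELOVL6 overlapped between groups (exact permutation p from 0.2 to 0.8). Leaving out any 1 library kept the log2 change of the ratio at 0.69 to 0.85 for SREBF1 to SREBF2, at -1.30 to -1.05 for INSIG1 to INSIG2 and at 2.16 to 2.39 for SCD to SCD5.

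**Figure D3:**
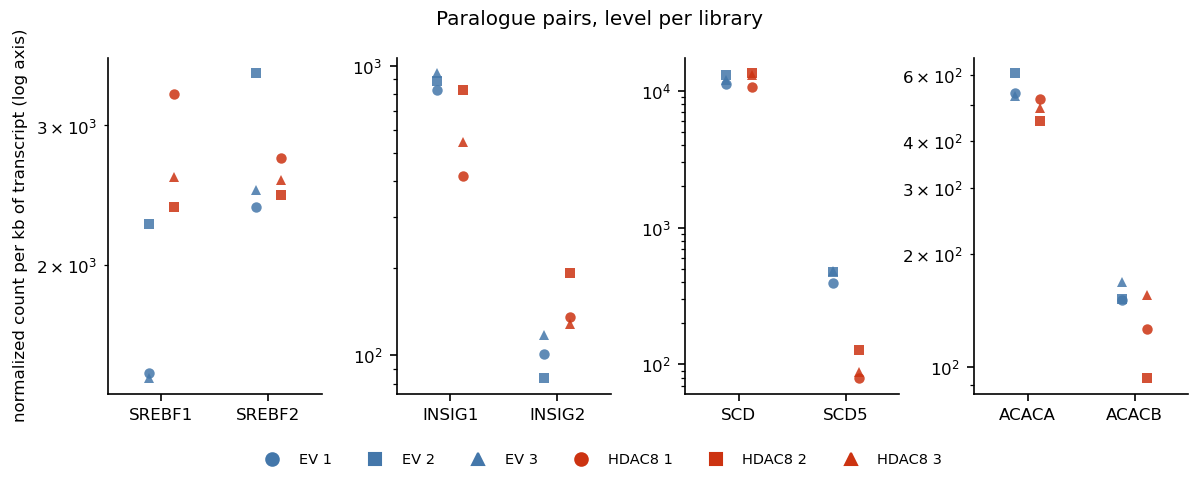
Normalized count per kb of transcript (y axis, log scale, with its own range in each panel) of 4 pairs of related genes in each library, EV in blue and HDAC8 in red. SREBF1 reaches the SREBF2 level in the libraries labelled HDAC8, INSIG1 and INSIG2 draw closer, SCD and SCD5 draw apart, and the ACACA and ACACB panel shows overlapping groups.

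Libraries of 1 group differed among themselves along the GC content of the transcript. Across the 38 genes, whose canonical transcripts hold 34.4% to 65.5% G and C (median 49.2%), the level in HDAC8 1 minus the mean of HDAC8 2 and HDAC8 3 (log2) followed GC content with Pearson's r = 0.70 and Spearman's rho = 0.69. Over 14314 genes with a mean of at least 50 the same values were 0.39 and 0.54. In EV the level in EV 2 minus the mean of EV 1 and EV 3 followed GC content with r = 0.78 and rho = 0.79 over the 38 genes and 0.40 and 0.59 over the 14314. These are correlations across genes of the same libraries, which are not independent, and they are given as a description. HDAC8 1 also had the lowest mitochondrial share (4.46%).

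In the 19 genes below the median GC content HDAC8 1 was the lowest of the 3 libraries labelled HDAC8 for 13 genes and the highest for 2. In the 19 genes at or above the median it was the lowest for 5 and the highest for 12. It lay more than 0.58 log2 units below the other 2 in 7 genes of the low-GC set and 0 of the high-GC set, and more than 0.58 above them in 1 and 4. The 7 low-GC genes below were MSMO1, SC5D, ELOVL5, STARD4, ELOVL6, INSIG1 and SQLE, the 1 above was ACAT2, and the 4 high-GC genes above were MVD, PMVK, LSS and MVK. SCD5 was called without HDAC8 1 and with size factors within bins of GC content. The part of GC content in the other differences was not tested beyond these alternatives.

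**Figure D4:**
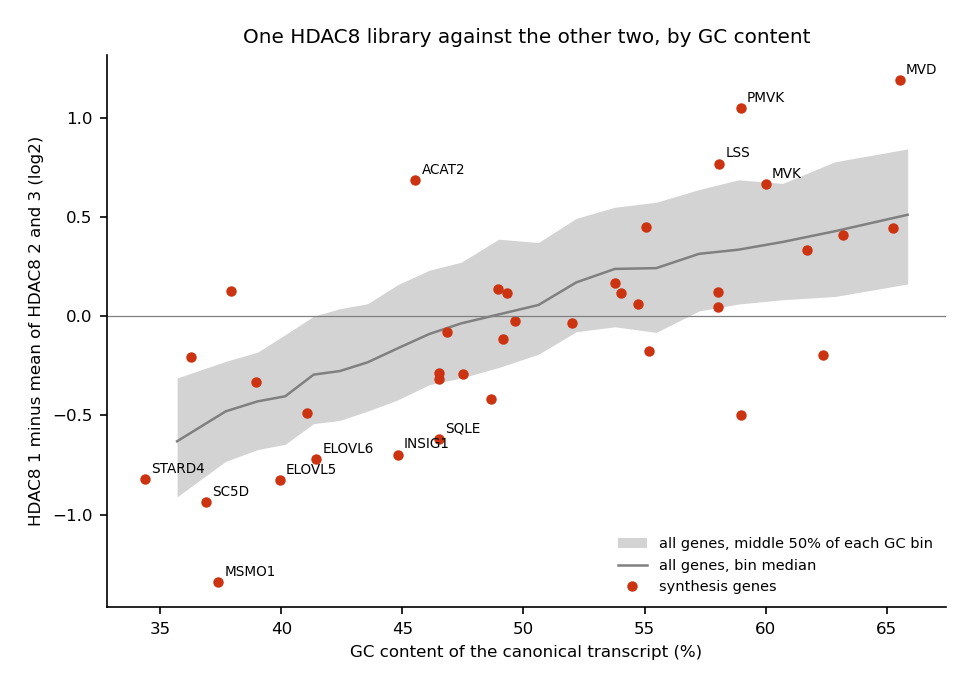
GC content of the canonical transcript (x axis, %) against the log2 level in HDAC8 1 minus the mean of HDAC8 2 and HDAC8 3 (y axis) for the 38 genes (red points), over the median (line) and middle 50% (grey band) of all genes with a mean of at least 50 in bins of GC content. Low-GC genes such as MSMO1 lie below 0 and high-GC genes such as MVD lie above 0.

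The rest of lipid metabolism was read from 6 lists of 100 other genes, of which 95 were tested and 91 had an adjusted p. DESeq2 called 4 higher and 8 lower, beside 5.57% and 5.44% of all genes. Among 18 tested genes of SREBP processing and partner factors, MBTPS2, the site-2 protease that frees the SREBPs, was called higher (log2 fold change 0.61, SE 0.19, adjusted p = 0.0181), and its partner MBTPS1 was not (0.29, adjusted p = 0.158). The MBTPS2 call was lost with limma-voom (adjusted p = 0.0637) and without any 1 of EV 1, EV 3, HDAC8 2 or HDAC8 3. Its expected counts were fractional in 100% of the libraries.

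Of 15 tested genes of sterol storage, efflux and LXR signalling, 4 were called lower and 0 higher, beside 5.44% and 5.57% of all genes. SOAT1, which esterifies cholesterol for storage, had 17912.2, 17760.6 and 17837.7 normalized counts in EV and 6209.6, 9172.3 and 7775.1 in the libraries labelled HDAC8. The EV libraries were nearly identical and all 3 of the others lay far below, at a log2 fold change of -1.21 (SE 0.15, adjusted p by DESeq2 = 3.43e-13). GRAMD1B, which carries cholesterol from the plasma membrane to the endoplasmic reticulum, fell by 2.69 on the log2 scale (SE 0.63, adjusted p by DESeq2 = 3.57e-04). NR1H3, the nuclear receptor LXR alpha, fell by 1.11 (adjusted p = 0.0174) and CYP27A1, the sterol 27-hydroxylase, by 0.62 (adjusted p = 0.00394). The NR1H3 call was lost without any 1 of the EV libraries or HDAC8 2, and the CYP27A1 call without EV 2 or HDAC8 3 and with size factors from total counts (-0.57, under the fold minimum). SOAT1 and GRAMD1B were called in all 15 alternatives.

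Of 19 tested triglyceride and lipid droplet genes, 3 were called higher and 1 lower, beside 5.57% and 5.44% of all genes. DGAT2, which makes triglyceride from diacylglycerol, had 206.6, 280.2 and 185.2 normalized counts in EV and 969.7, 716.9 and 676.2 in the libraries labelled HDAC8. The groups were well apart, at a log2 fold change of 1.81 (SE 0.30, adjusted p by DESeq2 = 1.28e-07), 3.52-fold higher. MGLL, the monoacylglycerol lipase, was low in EV (15.7, 17.7 and 0) and reached 164.2, 110.6 and 165.5 in the libraries labelled HDAC8 (log2 fold change 3.72, SE 0.88, adjusted p = 4.75e-04). Of the 4 listed droplet coat genes PLIN3 was higher (0.71, adjusted p = 0.00359) and PLIN2 lower (-0.84, adjusted p = 2.01e-04), while PLIN4 (-0.08, adjusted p = 0.974) and PLIN5 (no adjusted p) were not called. DGAT1, the unrelated enzyme of the same reaction, was not called (0.48, adjusted p = 0.168). The PLIN3 call was lost without EV 3 or HDAC8 1.

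In the remaining lists LBR, a sterol reductase of the inner nuclear membrane, fell by 0.67 (SE 0.18, adjusted p by DESeq2 = 0.00295). LBR was the 1 gene called among 12 isoprenoid and accessory genes, beside 11% of all genes called by DESeq2. Its call was lost without HDAC8 1 (-0.51) and with size factors within bins of GC content (-0.57), both under the fold minimum. Of 12 tested elongation and desaturation genes outside the 38, 2 were called lower and 0 higher, beside 5.44% and 5.57% of all genes. HACD1 fell by 2.00 (SE 0.50, adjusted p by DESeq2 = 0.00127) and ELOVL7 by 0.85 (SE 0.27, adjusted p = 0.0167). HACD1 had 494.9, 389.5 and 382.2 normalized counts in EV and a wide spread of 55.6, 203.8 and 57.7 in the libraries labelled HDAC8. The ELOVL7 call was lost without EV 1 or EV 3. DESeq2, edgeR and limma-voom called 0 of 19 tested genes of fatty acid beta-oxidation, beside 11% of all genes called by DESeq2. The nearest to a call was HADHA at -0.55 (adjusted p = 8.91e-04), under the fold minimum.

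**Figure D5:**
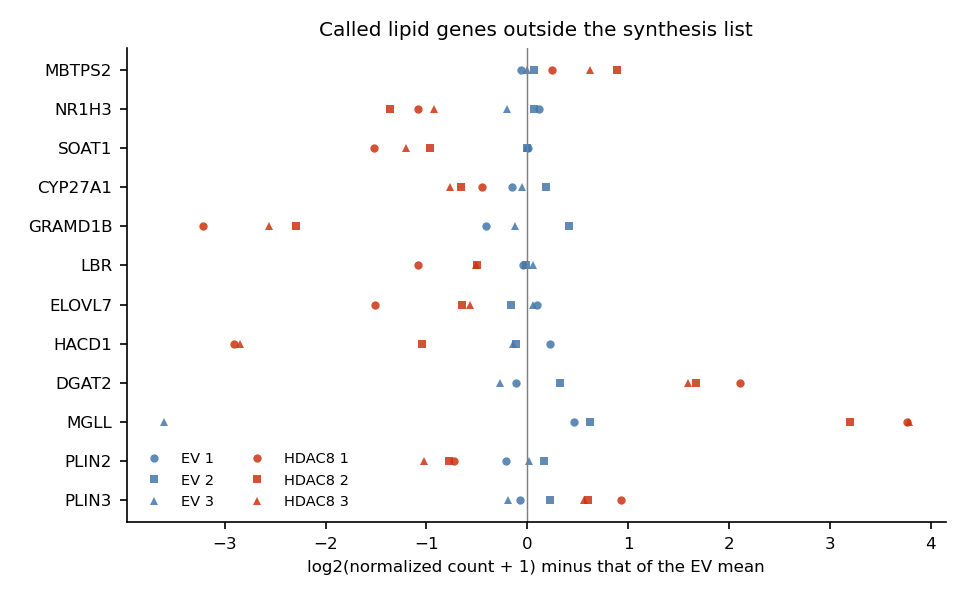
Level of the 12 called lipid genes outside the 38 in each library as log2(normalized count + 1) minus that of the EV mean (x axis), EV in blue and HDAC8 in red. The 4 genes called higher (MGLL, DGAT2, PLIN3 and MBTPS2) and the 8 called lower lie on opposite sides of the EV libraries without overlap.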

How the data were processed

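RNA-seq of 6 WM164 libraries was read from 1 table. The authors trimmed reads with Trimmomatic, aligned them with STAR and estimated counts per gene with RSEM, and the deposited values are expected counts, not scaled between libraries. Genome build, annotation, strand and removal of duplicates are not given in the sources used here. The study's own fold changes and p-values were not used, and 0 value columns belonged to other samples. Of 60504 genes, 3508 had no symbol (0.0804% to 0.102% of counts) and were kept by identifier. Positions, canonical transcript length and GC content came from GENCODE release 44 (GRCh38), and promoters from RefSeq (GRCh38.p14).

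Expected counts were rounded. Groups came from the labels. The comparison used DESeq2 1.42.0 in R 4.3.3 (Wald test, two-sided) on the 26162 genes whose counts summed to 10 or more, with Benjamini-Hochberg adjustment over all genes. Calls required adjusted p under 0.05 and a log2 fold change of 0.58 or more in either direction, as in the study's methods. DESeq2 gave no adjusted p for 5141 genes. Ratios of related genes were compared by an exact permutation test. Depth was 34741083 to 42041462 counts per library, all 38 genes lay above the floor of 3 counts, and 95% intervals come from the DESeq2 standard error. Pairs of libraries of 1 group differed beyond sampling noise (chi-square per degree of freedom, 26 to 153).

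Alternatives were edgeR 4.0.16 (quasi-likelihood) and limma 3.58.1 (voom), other size factors, filters and thresholds, a replicate block, and each library left out. Size factors within 20 bins of GC content and the left-out libraries for ratios were alternatives chosen after seeing the data. The comparison of ratios and its permutation test were not planned in advance either. The fits were tested on simulated data. Each library's values are given for called genes, the gene of each role with the largest change, and SREBF1, SREBF2, INSIG1, HMGCS1, SQLE, FASN and SCD. INSIG2 and FADS1 were added after their values were seen. Of the other lipid lists, up to 5 called genes each are named, only some of them with each library's values. MBTPS1, DGAT1, PLIN4, PLIN5 and HADHA were added after their values were seen. The genes, lists and tests were chosen with earlier results of these data known.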

Additional observations from a re-analysis of the deposited data

How the results depend on the processing

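Of 359 alternative values for 24 named genes, 317 kept their direction and their side of the threshold, 27 dropped under it, 6 passed it and 9 changed sign. Among the 24 the sign changed for FASN, HMGCS1, SCD and SREBF2. Among the rest of the 38 it also changed in at least 1 alternative for PMVK, MVD, CYP51A1, TM7SF2, SC5D, DHCR7, NPC2, ACLY, FADS2, ELOVL5 and ELOVL6. None of these was called. FASN moved from 0.10 to -0.0961 with size factors within bins of GC content, and ran from -0.0643 to 0.265 with 1 library left out. HMGCS1 ran from -0.104 to 0.167, SCD from -0.0204 to 0.136 and SREBF2 from -0.216 to 0.0863 with 1 library left out. Tested against the fold minimum itself, the DESeq2 calls over all genes dropped to 292 higher and 291 lower (1170 and 1143 otherwise), 0 of the 38 higher and 1 lower, and 2 other lipid genes in each direction. With 1 library left out, counts ran from 877 to 1218 genes higher and from 746 to 1378 lower, from 0 to 1 of the 38 higher and from 1 to 4 lower, and from 2 to 5 other lipid genes higher and 6 to 9 lower. The lowest count of 746 came without EV 3, which also gave 2 lipid genes higher, and the 4 came without HDAC8 1 or HDAC8 2. The median log2 fold change of the 38 ran from -0.136 to 0.00186, the latter without EV 2. The causes were not tested.

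Libraries with the same replicate number did not deviate together (correlations across genes of -0.0273, -0.0663 and 0.0399). No pairing by number was thus detected, though such correlations cannot exclude a shared culture or batch. A fit with a replicate block called 1075 genes higher and 1078 lower, 1 of the 38 higher and 3 lower, with MSMO1 added (-1.10, DESeq2 adjusted p = 0.0239). It called 4 other lipid genes higher and 7 lower, with NR1H3 at an adjusted p of 0.0628.

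Low counts limit HSD17B7 among the 38, and MGLL among the other lipid genes, for which the filter of 10 counts in every library left no value. GRAMD1B was also low in the libraries labelled HDAC8, at 16.2, 31.7 and 26.1 normalized counts.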
